A study of Mus musculus with 16 samples.

Results

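Interferon-stimulated genes were followed as a group of 41 mouse genes, picked by name from the 55426 genes measured in the ovary. All 41 were in the count table and all 41 had enough reads to be tested, among 18833 tested genes. The members were not chosen by a measured value of these libraries, although earlier results of the same data were known when the list was drawn up. They fall into 3 pathogen sensors, 4 transcription factors, 7 genes of the IFIT and ISG15 system, 6 OAS and OASL genes, 2 Mx GTPases, 7 GBP and IRG GTPases and 12 other effectors.

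The ovaries came from 16 female C57BL/6NHsd mice, an inbred strain, 1 ovary per mouse and 4 mice per group. On T mice were given 0.9 mg of testosterone enanthate, a slowly released testosterone ester, in sesame oil under the skin every week, and their ovaries were taken after 6 weeks of it, at an age of 16 weeks. Control for On T mice were of the same age and were injected with sesame oil alone. Post T mice had the same 6 weeks of injections, then none, and were taken at 24 to 28 weeks of age, 4 estrous cycles after cycling had come back, with Control for Post T mice of that age range injected with sesame oil alone. Testosterone began at 9 to 10 weeks of age, all ovaries were taken in diestrus, the phase between ovulations, and the labels name no engineered allele in any group.

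Interferons are secreted proteins that cells release on sensing virus or other foreign nucleic acid. Type I interferons act through the receptor chains Ifnar1 and Ifnar2 on a complex that holds Stat2 and Irf9 and binds the interferon-stimulated response element (ISRE), while interferon gamma acts on the gamma-activated site (GAS) and raises Irf1 and the GBP and IRG GTPases in particular. The products of the induced genes sense, degrade, trap or modify foreign RNA, proteins and membranes, and some of them restrain the response. In sheep and cattle an interferon from the early embryo induces such genes in the corpus luteum, the progesterone-making gland that follows ovulation.

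The promoter sequences of members show which of the DNA elements named above their start regions carry. RefSeq promoters of GRCm38.p6, 250 bases before to 50 after a gene's start, were matched by symbol for 31 of the 41 members. Gbp3, Trim30a, Irf1, Irf9 and Ifit2 had 2 such windows each, and a gene was counted where any of its windows held a match. The second window of Irf1, chr11:53770223-53770522, held no match to either element and is not printed. They were searched on both strands for the ISRE letters, GAAA then any 2 bases then GAAA, and for the GAS letters TTCNNNGAA. An ISRE match was present in 19 of the 31 members (61.3%), against 1079 of 27025 genes with a promoter in the table (3.99%). A GAS match was present in 9 of the 31 (29.0%), against 2582 of the 27025 genes (9.55%). The motifs overlapped each other in the promoters of Ifitm3 and Bst2. The 4 promoters printed first belong to the member of each of 4 role groups with the smallest p after testosterone, leaving out 1 chromosome, and those of Ifit1 and Oasl2, both lower on testosterone, were added after their values were seen. Capitals mark the matches, read 5′ to 3′ on the gene's own strand, and ISRE matches on the other strand read TTTC, any 2 bases, TTTC.
Irf1, chr11:53769764-53770063, plus strand, with 1 GAS match: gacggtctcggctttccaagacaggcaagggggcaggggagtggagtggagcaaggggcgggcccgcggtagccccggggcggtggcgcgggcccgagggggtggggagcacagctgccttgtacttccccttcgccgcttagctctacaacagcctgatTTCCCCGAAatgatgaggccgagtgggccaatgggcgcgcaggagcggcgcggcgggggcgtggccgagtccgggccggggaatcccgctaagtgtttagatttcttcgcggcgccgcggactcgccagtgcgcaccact
Ifit3b, chr19:34607707-34608006, plus strand, with 2 ISRE matches: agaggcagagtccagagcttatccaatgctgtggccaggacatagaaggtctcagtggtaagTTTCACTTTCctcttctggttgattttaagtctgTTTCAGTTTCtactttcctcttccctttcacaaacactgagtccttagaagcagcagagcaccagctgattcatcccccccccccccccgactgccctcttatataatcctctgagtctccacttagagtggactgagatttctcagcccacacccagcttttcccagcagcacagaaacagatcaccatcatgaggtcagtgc
Oas1a, chr5:120907476-120907775, minus strand, with 2 ISRE matches that overlap and 1 GAS match: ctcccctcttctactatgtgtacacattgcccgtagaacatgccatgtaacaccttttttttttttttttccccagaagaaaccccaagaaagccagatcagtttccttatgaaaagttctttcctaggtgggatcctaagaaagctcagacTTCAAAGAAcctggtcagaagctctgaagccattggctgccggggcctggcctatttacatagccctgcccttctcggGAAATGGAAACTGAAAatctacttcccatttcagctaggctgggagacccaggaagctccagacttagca
Irgm1, chr11:48871371-48871670, minus strand, with 2 ISRE matches that overlap: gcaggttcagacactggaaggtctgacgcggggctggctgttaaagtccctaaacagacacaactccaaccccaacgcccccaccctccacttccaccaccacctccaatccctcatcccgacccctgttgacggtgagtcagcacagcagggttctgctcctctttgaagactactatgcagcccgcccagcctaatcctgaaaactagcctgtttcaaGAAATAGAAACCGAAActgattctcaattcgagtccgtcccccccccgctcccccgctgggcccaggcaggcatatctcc
Ifit1, chr19:34640639-34640938, plus strand, with 2 ISRE matches: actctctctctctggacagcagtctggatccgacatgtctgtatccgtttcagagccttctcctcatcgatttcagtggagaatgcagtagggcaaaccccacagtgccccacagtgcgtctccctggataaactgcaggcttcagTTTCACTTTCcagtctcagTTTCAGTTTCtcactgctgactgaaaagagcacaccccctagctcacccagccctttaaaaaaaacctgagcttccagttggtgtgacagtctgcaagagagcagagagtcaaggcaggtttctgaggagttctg
Oasl2, chr5:114896684-114896983, plus strand, with no match to either: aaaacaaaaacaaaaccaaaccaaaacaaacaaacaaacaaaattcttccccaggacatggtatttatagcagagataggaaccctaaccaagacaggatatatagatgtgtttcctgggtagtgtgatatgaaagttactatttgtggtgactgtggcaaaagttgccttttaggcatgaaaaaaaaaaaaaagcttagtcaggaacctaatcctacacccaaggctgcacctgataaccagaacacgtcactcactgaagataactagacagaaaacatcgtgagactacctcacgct
Both elements of Ifit1 and Ifit3b lie on the other strand, and in Oas1a and Irgm1 the paired ISRE matches share their middle letters. A match describes the letters of the window and is neither a binding site nor a cause, and no match says only that these letters are absent from the window.

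Several members are neighbours in the genome, with positions given in GRCm38. Ifit2, Ifit3, Ifit3b and Ifit1 lie side by side on chromosome 19, from base 34550694 to base 34650009. Oas2, Oas3, Oas1g and Oas1a lie together on the minus strand of chromosome 5, from base 120730333 to base 120907521, and Gbp5, Gbp7, Gbp3 and Gbp2 on the plus strand of chromosome 3, from base 142493978 to base 142638008. All members are annotated as protein-coding but Mx2, which is annotated as a polymorphic pseudogene. Near-identical neighbours make some values uncertain, since reads may be split between them. Of all windows of 150 bases in the transcripts of Oas1a, 32.4% are also found in Oas1g, and 18.5% of those of Ifit3 are found in Ifit3b. Exons of Ifi35 overlap a gene on the opposite strand over 16.8% of their bases. That overlap is 4.44% in Usp18, 4.31% in Dhx58 and 3.40% in Irf1. Whether the counting used strand is not given in the sources used here. Overlap with a gene on the same strand is 13.9% in Rtp4, 13.7% in Herc6, 11.3% in Gbp7 and 8.01% in Igtp.

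Levels were compared between members in TPM, a share of all transcripts that is corrected for transcript length. Bst2, which encodes the surface protein tetherin that holds budding virus on the cell, had the highest mean over the 16 libraries, at 341 TPM. Ifi27, a membrane protein of mitochondria and nuclear envelope, followed at 256 TPM and Ifitm3, which blocks virus entry from endosomes, at 227 TPM. The next level was that of Irf1, at 34.4 TPM, and no library of any of the other 38 members exceeded 47.7 TPM. The lowest were Oas2 at 0.991 TPM, Oas1g at 0.681, Mx1 at 0.348 and Oas3 at 0.184 TPM. Oas3 had as few as 2 counts in a library and Mx1 as few as 4, and values of these members carry large counting errors.

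**Figure D1:**
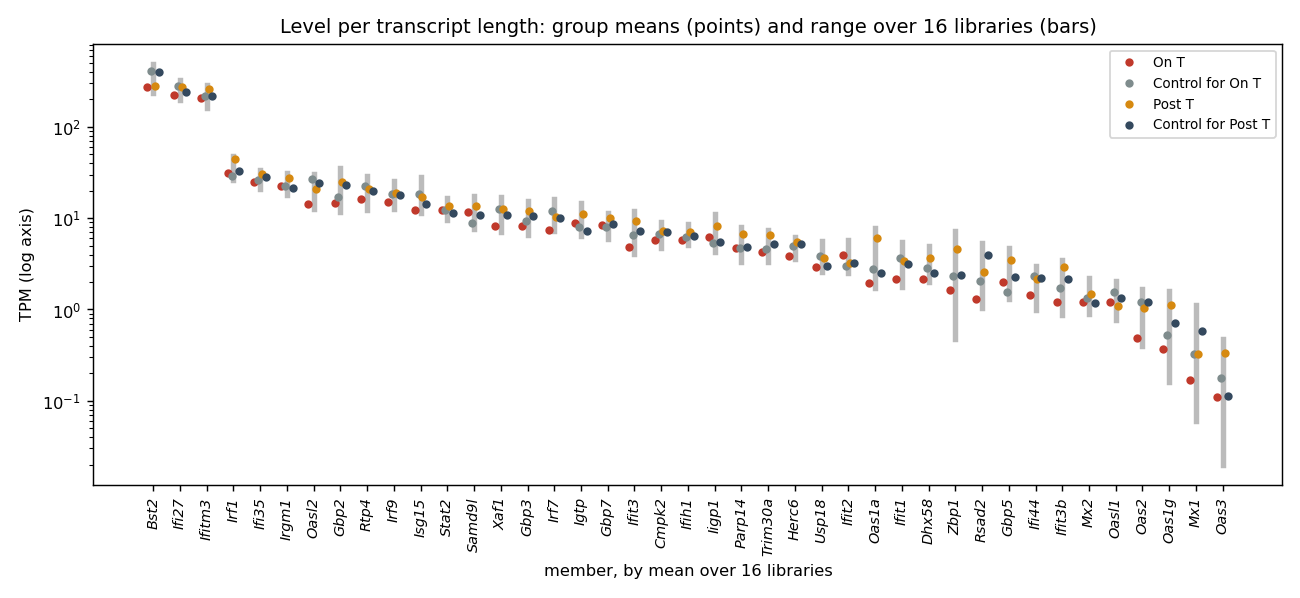
Level of each of the 41 members in TPM on a log axis, ordered by the mean over 16 libraries, with group means of 4 libraries as points and grey bars for the range over all 16 libraries. Bst2, Ifi27 and Ifitm3 lie above 163 TPM in every library, and Oas3 lies lowest, at a mean of 0.184 TPM.

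The libraries held 26598055 to 52659637 counts. No pair of libraries was identical, and pairs of 1 group differed by far more than counting noise. On T library 2 stood apart in the summed level of 6 surface epithelium markers, 34.9 CPM against 82.5 to 247 CPM in the other On T libraries, and of granulosa markers, 2217 against 5867 to 8026 CPM. On T library 3 stood apart in corpus luteum markers, 2570 against 709 to 1031 CPM, and in theca markers, 1304 against 281 to 422 CPM. Cyp11a1 made up most of that corpus luteum sum, at 77216 counts against 21605 to 47425 in the other On T libraries. Akr1c18 had 36 counts in On T library 3, against 14 to 29 in the other On T libraries and 3989 to 7398 in Control for On T. Levels below are CPM, read counts scaled to the library's total with TMM, and a gene is called higher or lower where edgeR's quasi-likelihood test gave an adjusted p under 0.05 over all 18833 genes. Values are in the order of libraries 1 to 4 of a group, whose numbers were not taken as pairs of mice. Replicates are separate mice, so the tests measure the spread between mice.

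The first comparison asked how these genes stood in the ovary after 6 weeks of testosterone that was still being given. Testosterone was accompanied by lower levels of a few members: 6 of 41 were called lower (14.6%), beside 5.03% of all tested genes. They were Irf7, Ifit1, Oas2, Oasl2, Rsad2 and Bst2, 4 different role groups. No member was called higher in edgeR with all libraries, beside 4.24% of all genes, while 2 were higher at an unadjusted p under 0.05. DESeq2 called 1 higher (Samd9l) and limma on TPM called none. In either direction, 9.27% of all tested genes were called. The log2 fold change was negative in 33 of 41 members with a median of -0.29, beside -0.005 over all tested genes. The On T libraries lay wholly below those of Control for On T in 12 members, beside 7.92% of all genes, and wholly above in 1, beside 7.22%. In whole ovaries, fewer cells of a type and less RNA per cell cannot be told apart.

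Among the transcription factors, Irf7, which amplifies the production of type I interferons, had 8.74, 8.29, 8.85 and 9.73 CPM in On T libraries 1 to 4, against 15.0, 11.4, 15.9 and 15.9 CPM in Control for On T (log2 fold change -0.71, SE 0.19, edgeR adjusted p = 0.0266). Every On T library was below every control library. Irf9, the DNA-binding partner of Stat2, had 26.0, 27.3, 21.5 and 26.7 CPM in On T, against 32.1, 31.1, 30.1 and 30.4 CPM in Control for On T (log2 fold change -0.29, SE 0.11, edgeR adjusted p = 0.13). These groups did not overlap either, but the difference did not pass the threshold. Stat2 averaged 31.6 ± 3.63 CPM in On T and 34.0 ± 1.51 CPM in Control for On T (SD, n = 4 each), and Irf1 averaged 42.7 ± 4.40 CPM in On T and 39.3 ± 3.48 CPM in Control for On T, with edgeR adjusted p = 0.561 and 0.515 in that order.

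In the IFIT and ISG15 system, 1 of 7 members was called lower and none higher. Ifit1, which binds foreign RNA at its cap, had 4.59, 3.83, 4.16 and 3.26 CPM in On T, against 6.63, 5.67, 6.36 and 7.82 CPM in Control for On T (log2 fold change -0.74, SE 0.22, edgeR adjusted p = 0.0441), and the groups did not overlap. Isg15, the ubiquitin-like protein that is coupled to newly made proteins, had 4.38, 3.77, 4.22 and 4.36 CPM in On T, against 6.50, 4.82, 7.999 and 5.74 CPM in Control for On T (log2 fold change -0.58, SE 0.23, edgeR adjusted p = 0.142). Isg15 libraries did not overlap between the groups, and neither did those of Herc6, the mouse enzyme that attaches Isg15. Herc6 averaged 10.8 ± 0.716 CPM in On T and 12.9 ± 1.14 CPM in Control for On T (edgeR adjusted p = 0.269). Usp18, which removes Isg15 and dampens the type I receptor, had a log2 fold change of -0.41, Ifit3 of -0.43 and Ifit3b of -0.48, none of them called. Ifit2 was the exception in sign, at 0.40 and edgeR adjusted p = 0.177, with 14.4 CPM in On T library 2 and 8.56 to 9.52 CPM in the other On T libraries.

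The OAS family makes short oligoadenylates that switch on the RNA-cutting enzyme RNase L, and 2 of its 6 members here were called lower. Oas2 had 1.01, 1.44, 0.983 and 1.07 CPM in On T, against 2.33, 3.94, 2.35 and 3.19 CPM in Control for On T (log2 fold change -1.39, SE 0.29, edgeR adjusted p = 0.00569). This was the largest negative log2 fold change among the 41 members, and no On T library reached the lowest control. Oasl2, an OAS-like protein with a ubiquitin-like end, had 22.9, 16.9, 20.4 and 18.5 CPM in On T, against 33.7, 30.0, 36.1 and 35.8 CPM in Control for On T (log2 fold change -0.78, SE 0.15, edgeR adjusted p = 0.0032). The Oasl2 groups were clearly apart, with the highest On T library at 22.9 CPM and the lowest control at 30.0 CPM. Oas1a averaged 2.42 ± 0.396 CPM in On T and 3.43 ± 0.351 CPM in Control for On T (log2 fold change -0.51, SE 0.18, edgeR adjusted p = 0.1), and its libraries overlapped. Oas3 had no overlap between the groups but a low level, and it was not called, nor were Oas1g and Oasl1, at log2 fold changes of -0.68, -0.31 and -0.25.

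Of the 12 other effectors, 2 were called lower on testosterone. Rsad2, or viperin, which makes a chain-ending nucleotide against viral RNA synthesis, had 3.37, 4.03, 2.78 and 3.67 CPM in On T, against 5.42, 5.87, 5.57 and 5.08 CPM in Control for On T (log2 fold change -0.67, SE 0.19, edgeR adjusted p = 0.0394). Bst2 had 115, 104, 108 and 124 CPM in On T, against 176, 159, 170 and 161 CPM in Control for On T (log2 fold change -0.56, SE 0.16, edgeR adjusted p = 0.0334). Both were lower in every On T library than in any control. Ifi44 and Xaf1, a binder of an apoptosis inhibitor, had the same separation without a call, at log2 fold changes of -0.59 and -0.42, and Samd9l was the only member with all On T libraries above the controls, at 0.42 and edgeR adjusted p = 0.0797. Cmpk2, a mitochondrial nucleotide kinase that lies next to Rsad2 on chromosome 12, was not called, at -0.28. The other 6 effectors, Ifi35, Ifi27, Ifitm3, Rtp4, Parp14 and Trim30a, ranged from -0.49 in Rtp4, a chaperone of membrane receptors, to 0.02 in Parp14.

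Of the sensors and GTPases, 12 members in all, none was called on testosterone by edgeR, DESeq2 or limma with all libraries. At an unadjusted p under 0.05 there were 2, Dhx58 and Mx1. Dhx58, a helicase that tunes RNA sensing, averaged 3.27 ± 0.196 CPM in On T and 4.44 ± 0.744 CPM in Control for On T (edgeR adjusted p = 0.188), and Ifih1 and Zbp1 had log2 fold changes of -0.06 and -0.50. Mx1, a nuclear GTPase against influenza virus that is defective in C57BL/6 mice, had 0.419, 0.131, 0.116 and 0.231 CPM in On T, against 0.410, 0.373, 0.741 and 0.421 CPM in Control for On T (log2 fold change -1.04, SE 0.40, edgeR adjusted p = 0.123), with overlap between the groups. Mx2 had a log2 fold change of -0.06. The 7 GBP and IRG GTPases ranged from -0.22 in Gbp3 to 0.37 in Gbp5, with a median of 0.05. Gbp5, a guanylate-binding protein that attacks membranes of enclosed bacteria, had 4.76, 4.72, 2.69 and 5.05 CPM in On T, against 3.46, 3.36, 3.04 and 3.45 CPM in Control for On T, and its libraries overlapped because On T library 3 lay below all controls.

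Between 2 and 3 members were called whichever of the 8 libraries was left out (4.88 to 7.32%), beside 5.66 to 9.24% of all genes, and the members' share exceeded that of all genes in 3 of the 8 fits. Only Oas2 and Oasl2 were called without each of the 8 libraries in turn, with edgeR adjusted p of up to 0.0252 for Oas2 and up to 0.0132 for Oasl2. Ifit1 and Bst2 lost their call whichever of the 8 libraries was left out (edgeR adjusted p 0.0566 to 0.133 for Ifit1 and 0.0570 to 0.0825 for Bst2), Rsad2 kept its call only without On T library 2 (0.0404, otherwise up to 0.103), and Irf7 only without On T library 4 or Control for On T library 2 (range 0.0204 to 0.0795). Not called with all libraries, Mx1 was called lower in 1 of the 8 fits (edgeR adjusted p = 0.032) and Samd9l higher in 1 (0.0464).

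**Figure D2:**
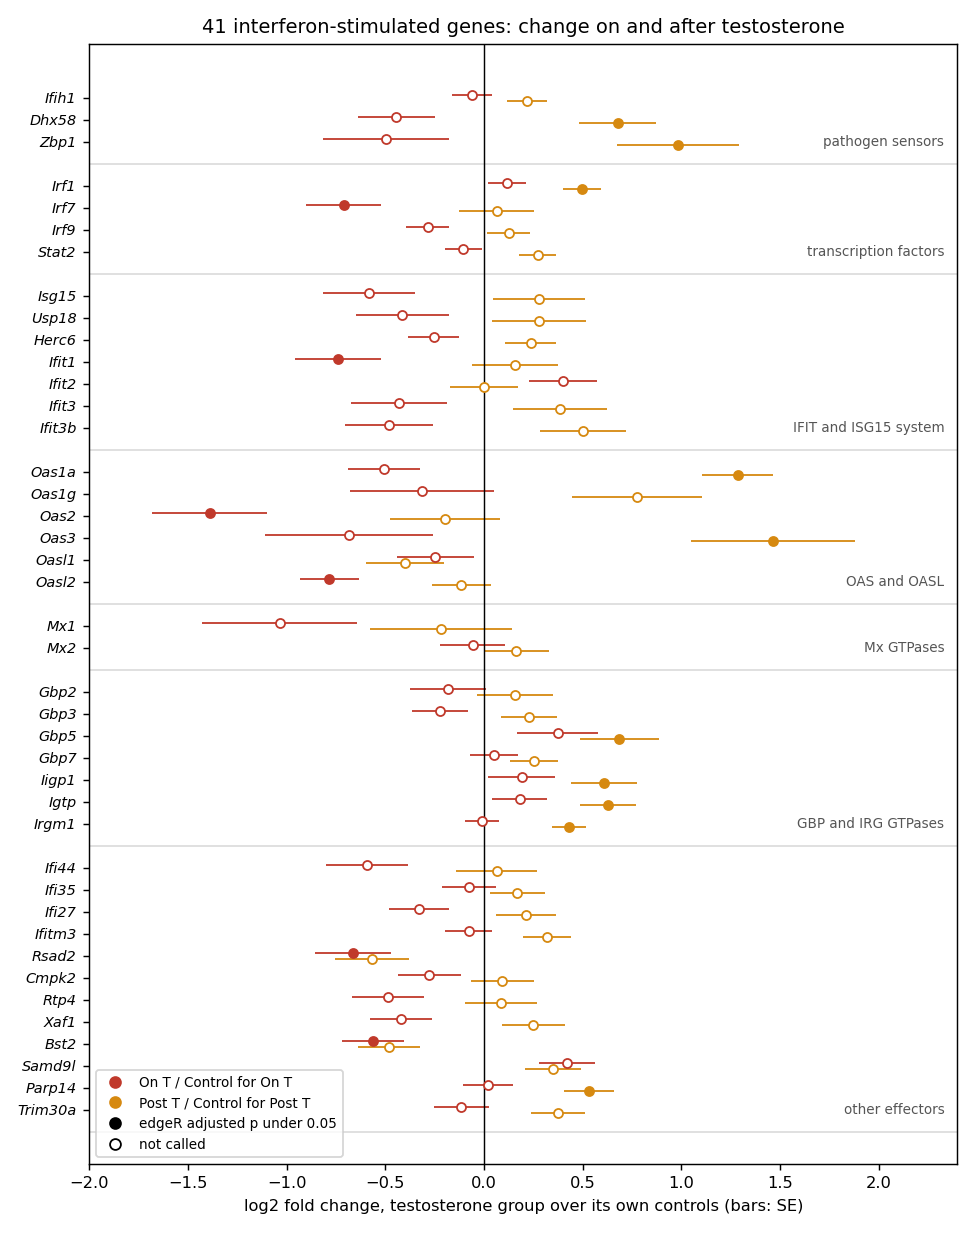
Log2 fold change of each member, grouped by role, in On T over Control for On T (red) and in Post T over Control for Post T (orange), with bars of 1 SE and filled points where the edgeR adjusted p was under 0.05. The filled red points, 6 in number, lie left of 0 and the filled orange points, 10 in number, lie right of it.

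The second comparison asked how the same genes stood after testosterone had been stopped and cycling had returned. Here 10 of 41 members were called higher (24.4%), beside 7.49% of all tested genes. They were the sensors Dhx58 and Zbp1, the factor Irf1, the OAS genes Oas1a and Oas3, the GTPases Gbp5, Iigp1, Igtp and Irgm1, and Parp14. No member was called lower in edgeR, beside 4.81% of all genes, while 2 were lower at an unadjusted p under 0.05, DESeq2 called 2 lower (Bst2 and Rsad2) and limma on TPM called 1 lower (Bst2). The median log2 fold change of the members was 0.25, beside -0.010 over all tested genes, and 34 of 41 were positive. Post T libraries lay wholly above those of Control for Post T in 8 members, beside 9.62% of all genes, and wholly below in none, beside 6.92%.

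The GBP and IRG GTPases, effectors of interferon gamma that coat and break the vacuoles of enclosed microbes, held the most calls, 4 of 7. Irgm1, a regulator of the other IRG proteins and of autophagy, had 45.3, 43.4, 38.1 and 38.0 CPM in Post T, against 29.2, 33.6, 30.2 and 29.2 CPM in Control for Post T (log2 fold change 0.43, SE 0.09, edgeR adjusted p = 0.00237). Igtp, another regulatory IRG protein, had 19.3, 16.7, 11.9 and 12.2 CPM in Post T, against 9.70, 10.3, 9.24 and 9.64 CPM in Control for Post T (log2 fold change 0.63, SE 0.14, edgeR adjusted p = 0.00634). In both genes all Post T libraries were above all controls, with Post T libraries 1 and 2 higher than 3 and 4. Iigp1, an effector GTPase of the vacuole membrane, had 19.4, 21.9, 13.4 and 11.6 CPM in Post T, against 9.78, 12.2, 9.98 and 11.6 CPM in Control for Post T (log2 fold change 0.61, SE 0.17, edgeR adjusted p = 0.0241), and here Post T library 4 lay within the control range.

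Gbp5 had 6.93, 10.3, 8.32 and 5.60 CPM in Post T, against 4.75, 5.47, 5.005 and 4.11 CPM in Control for Post T (log2 fold change 0.69, SE 0.20, edgeR adjusted p = 0.0323), without overlap. Gbp2, Gbp3 and Gbp7 had log2 fold changes of 0.16, 0.23 and 0.25 and were not called. Gbp2 averaged 44.1 ± 12.5 CPM in Post T and 39.5 ± 3.56 CPM in Control for Post T, with a spread in Post T that came mostly from 62.3 CPM in library 2.

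Of the transcription factors, Irf1, an early target of interferon gamma, was the 1 called. It had 61.2, 67.3, 70.1 and 55.0 CPM in Post T, against 42.9, 47.5, 46.8 and 42.6 CPM in Control for Post T (log2 fold change 0.49, SE 0.10, edgeR adjusted p = 0.00188). The lowest Post T library was above the highest control. Stat2 also had no overlap, with 44.8, 35.3, 35.3 and 37.8 CPM in Post T, against 30.6, 32.1, 30.6 and 33.6 CPM in Control for Post T, but did not pass (log2 fold change 0.27, SE 0.09, edgeR adjusted p = 0.0707). Irf9 had 42.3, 30.1, 28.8 and 29.8 CPM in Post T, against 31.2, 28.4, 30.9 and 29.7 CPM in Control for Post T, and Irf7 had 19.0, 11.5, 10.1 and 10.4 CPM in Post T, against 13.4, 10.5, 10.0 and 15.0 CPM in Control for Post T. For these factors library 1 stood above the other Post T libraries, which lay within the control range, and neither was called (edgeR adjusted p = 0.58 and 0.899 in that order).

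All 3 sensors had positive log2 fold changes and 2 were called. Dhx58 had 8.11, 4.76, 5.47 and 5.19 CPM in Post T, against 3.74, 3.31, 2.81 and 4.82 CPM in Control for Post T (log2 fold change 0.68, SE 0.20, edgeR adjusted p = 0.0295). Zbp1, a sensor of left-handed nucleic acid that can start cell death, had 4.67, 3.66, 2.41 and 1.69 CPM in Post T, against 1.40, 1.66, 1.303 and 1.89 CPM in Control for Post T (log2 fold change 0.98, SE 0.31, edgeR adjusted p = 0.0472). The groups overlapped in both genes, through Post T library 2 for Dhx58 and library 4 for Zbp1. Ifih1, the helicase sensor of long double-stranded RNA, had 27.7, 24.1, 21.2 and 20.4 CPM in Post T, against 17.5, 21.5, 19.8 and 21.4 CPM in Control for Post T (log2 fold change 0.22, SE 0.10, edgeR adjusted p = 0.215), a difference that did not pass.

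Within the OAS family, Oas1a and Oas3 were called higher after testosterone. Oas1a had 9.74, 6.42, 9.07 and 5.57 CPM in Post T, against 3.31, 3.06, 3.35 and 2.90 CPM in Control for Post T (log2 fold change 1.29, SE 0.18, edgeR adjusted p = 8.79e-05). It had the smallest p of all members, and each Post T library was at least 1.5 times as high as the highest control. Oas3 had 1.303, 1.55, 0.509 and 0.812 CPM in Post T, against 0.0779, 0.625, 0.326 and 0.443 CPM in Control for Post T (log2 fold change 1.47, SE 0.41, edgeR adjusted p = 0.0272), low levels at which library 3 overlapped the controls. Oas1g, which shares sequence with Oas1a, had 1.75, 1.04, 1.36 and 0.677 CPM in Post T, against 0.740, 0.437, 0.652 and 0.959 CPM in Control for Post T (log2 fold change 0.78, SE 0.33, edgeR adjusted p = 0.163), with overlap and no call. Oas2 and Oasl2 were not called, with averages of 2.58 ± 1.10 and 29.5 ± 7.98 CPM in Post T, against 2.94 ± 0.537 and 31.9 ± 2.90 CPM in Control for Post T. Oasl1, which in mice holds back translation of Irf7, was not called either (-0.40 on the log2 scale).

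In the IFIT and ISG15 system no member was called after testosterone in edgeR, DESeq2 or limma, and 1 of 7 (Ifit3b) had an unadjusted p under 0.05. Ifit3b, a close copy of Ifit3, had 4.23, 3.66, 5.16 and 3.00 CPM in Post T, against 2.34, 3.22, 2.40 and 3.32 CPM in Control for Post T (log2 fold change 0.50, SE 0.22, edgeR adjusted p = 0.168). Ifit3 had 13.6, 9.78, 12.7 and 7.33 CPM in Post T, against 7.17, 8.06, 5.18 and 12.6 CPM in Control for Post T (log2 fold change 0.39, SE 0.24, edgeR adjusted p = 0.376). Both overlapped, because Post T library 4 was low and control library 4 high. Herc6 averaged 14.9 ± 2.61 CPM in Post T and 12.6 ± 1.74 CPM in Control for Post T, Isg15 5.99 ± 2.52 CPM in Post T and 4.96 ± 0.935 CPM in Control for Post T, and Ifit1 6.40 ± 2.47 CPM in Post T and 5.75 ± 0.992 CPM in Control for Post T. Usp18 and Ifit2 had log2 fold changes of 0.28 and 0.00.

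Among the 12 other effectors, Parp14, an enzyme that adds ADP-ribose to proteins, was called. It had 43.7, 35.1, 37.6 and 34.9 CPM in Post T, against 20.4, 29.2, 28.1 and 26.8 CPM in Control for Post T (log2 fold change 0.53, SE 0.13, edgeR adjusted p = 0.00899), without overlap. Bst2 and Rsad2, both lower on testosterone, had negative values here too. Bst2 had 137, 107, 137 and 96.9 CPM in Post T, against 232, 131, 131 and 173 CPM in Control for Post T (log2 fold change -0.48, SE 0.16, edgeR adjusted p = 0.0586), and Rsad2 had 7.82, 8.32, 6.32 and 6.14 CPM in Post T, against 6.47, 13.8, 11.2 and 10.97 CPM in Control for Post T (log2 fold change -0.57, SE 0.19, edgeR adjusted p = 0.0587). Neither passed in edgeR with all libraries, but Rsad2 was called lower without Control for Post T library 1 (edgeR adjusted p = 0.00379) and Bst2 without Control for Post T library 2 or 3 (0.0266 and 0.0350). The controls were widely spread, with Bst2 at 232 CPM in control library 1 and 131 to 173 CPM in the others. Ifitm3 had no overlap between groups at a log2 fold change of 0.32 (edgeR adjusted p = 0.105), and Trim30a, which restrains inflammatory signalling in mice, and Samd9l, a brake on translation, were positive without a call at 0.38 and 0.35. Mx1 and Mx2 had values of -0.22 and 0.16. Ifi44, Ifi35, Ifi27, Cmpk2, Rtp4 and Xaf1 ranged from 0.06 in Ifi44 to 0.25 in Xaf1, with none called.

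Irf1, Oas1a, Igtp, Irgm1 and Parp14 were called without each of the 8 libraries in turn, at edgeR adjusted p of up to 0.0295, reached by Parp14, which limma on TPM did not call. Each of the other 5 lost its call without some libraries. Dhx58 did so without Post T library 1 or Control for Post T library 2 or 3 (edgeR adjusted p up to 0.107), Zbp1 without Post T library 1 or 2 or any control (up to 0.167), and Oas3 without Post T library 1 or 2 or control library 3 or 4 (up to 0.0875). Gbp5 did so without Post T library 2 or 3 or control library 1, 3 or 4 (up to 0.113), and Iigp1 without Post T library 1 or 2 or control library 1 or 3 (up to 0.0787). The number of called members was 6 (14.6%) without Post T library 1, beside 10.1% of all genes, and 6 without Control for Post T library 3, beside 10.8%. The members' share exceeded that of all genes in each of the 8 fits. Stat2, not called with all libraries, was called higher in 1 of the 8 fits (edgeR adjusted p = 0.0468).

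**Figure D3:**
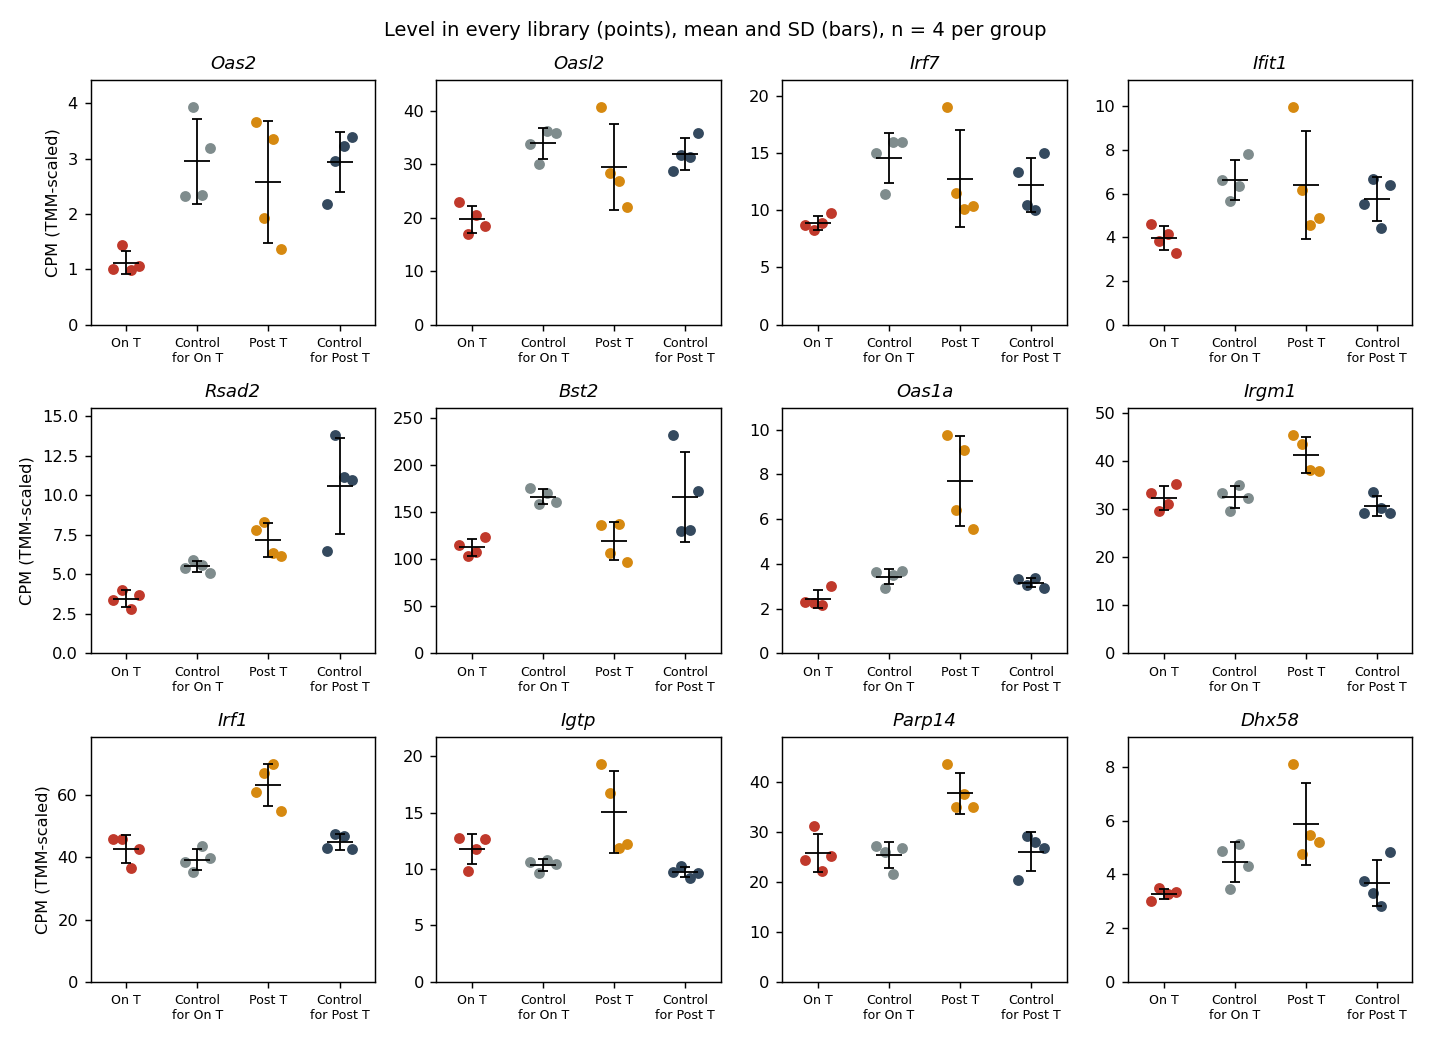
Level in TMM-scaled CPM of 12 members in every library, with each point a mouse, black bars for the mean and SD of 4 and axes that start at 0. Oas2, Oasl2, Irf7, Ifit1, Rsad2 and Bst2 lie lower in On T than in Control for On T, and Oas1a, Irgm1, Irf1, Igtp, Parp14 and Dhx58 are higher on average in Post T than in Control for Post T, with overlap only in Dhx58.

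No member was called in both comparisons, beside 4.18% of all tested genes, and 25 of the 41 were called in neither, beside 82.6%. Whether the responses differ between the cohorts was tested directly, as the effect in Post T minus the effect in On T. The difference was positive in 38 of 41 members, with a median of 0.49 on the log2 scale beside -0.004 over all tested genes. After adjustment 2 members were called, both with a positive difference (4.88%), beside 2.93% of all genes, and 3.25% counting both directions. They were Oas1a at 1.79 (SE 0.26, edgeR adjusted p = 0.00085) and Dhx58 at 1.12 (SE 0.28, edgeR adjusted p = 0.0329). Both had a negative, uncalled value on testosterone and a positive, called value after it.

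Of the other called members, Oas3 differed by 2.15 (edgeR adjusted p = 0.0627), Irgm1 by 0.44 (0.0599), Zbp1 by 1.48 (0.0916), Oasl2 by 0.67 (0.116), Oas2 by 1.19 (0.142), Ifit1 by 0.90 (0.159) and Irf7 by 0.78 (0.16), none of them past the threshold. Parp14 differed by 0.51 (0.165), Irf1 by 0.38 (0.183), Igtp by 0.45 (0.312), Iigp1 by 0.42 (0.469) and Gbp5 by 0.31 (0.69), with no difference past the threshold, and these 5 had positive values on testosterone as well as after it. Bst2 and Rsad2 differed by 0.08 and 0.10, and their values were negative in both cohorts. Oas1a was called without each of the 16 libraries in turn. Dhx58 lost its call without On T library 1, 3 or 4, Control for On T library 1, 3 or 4, Post T library 1 or Control for Post T library 2 or 3, with values down to 0.94 and edgeR adjusted p of up to 0.0746. The number called was 6 without Post T library 4, 6 in DESeq2 and 1 in limma on TPM.

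The controls of the cohorts, which differ in age and cohort that cannot be told apart, were compared as a check on the groups under the difference. None of the 41 members was called in Control for Post T against Control for On T by edgeR, beside 0 of 18833 genes (0%), while 4 members had an unadjusted p under 0.05 and DESeq2 called 1, Rsad2. Rsad2 averaged 10.6 ± 3.03 CPM in Control for Post T and 5.49 ± 0.328 CPM in Control for On T (log2 fold change 0.95, SE 0.19, edgeR adjusted p = 0.115), and edgeR called it only without Control for Post T library 1.

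The mice of a group did not carry the members at the same level. Relative to the mean of its own controls, the median member lay at 0.50 on the log2 scale in Post T library 1, at 0.27 in library 2, at 0.16 in library 3 and at 0.05 in library 4. Post T library 1 was the highest of its group for 26 of the 41 members and library 4 the lowest for 27. In On T the same medians were -0.18, -0.34, -0.39 and -0.23 for libraries 1 to 4, all negative. On T library 3 was the lowest of its group for 22 members, and Control for On T library 2 was the lowest control for 22.

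**Figure D4:**
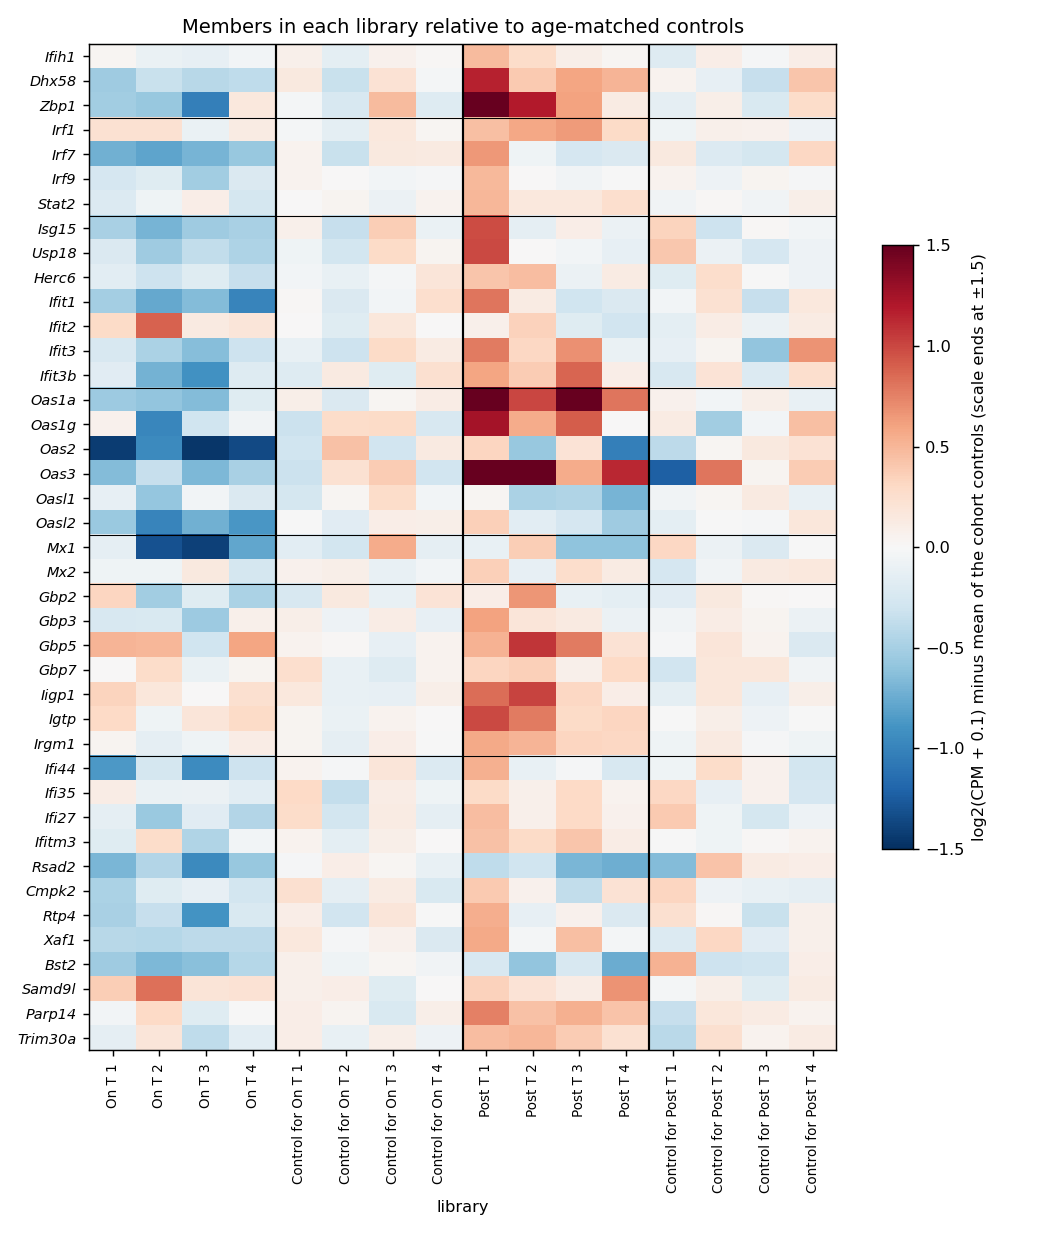
Each member, in rows by role, in each of the 16 libraries as log2(CPM + 0.1) minus the mean of the controls of the same cohort, with red for higher, blue for lower and a scale that ends at 1.5 either way. Most members are blue across On T, and in Post T red is strongest in library 1, whose median member lies at 0.50, and faintest in library 4, at 0.05.

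Ligands stand at the head of the pathway, and all 21 interferon ligand genes of the table were too sparse for a test. Ifng, interferon gamma, had 21 counts in all over the 4 Post T libraries and 2 over Control for Post T, against 5 over On T and 4 over Control for On T. Each Post T library had at least 1 count of Ifng, as did 2 of the 4 libraries of Control for Post T. Ifnb1, the main early type I interferon, had no count in any library, and neither did 11 further ligand genes. Ifne, an interferon of the female reproductive tract, had 1 count in On T, 1 in Control for On T and none in the other groups. A count of 0 is within the floor of 3 counts, 0.0571 to 0.117 CPM per library, and is not evidence of absence.

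Receptor chains were read next, as the genes through which ligands act. Ifngr2 and Ifngr1, the chains of the interferon gamma receptor, had log2 fold changes of 0.34 and 0.39 after testosterone (edgeR adjusted p = 0.00301 and 0.0263). Neither was called on testosterone. Ifngr1 had 36.7 to 53.2 TPM in On T, against 35.0 to 37.6 TPM in Control for On T. Ifngr2 had 44.2 to 50.5 TPM in On T, against 40.5 to 45.8 TPM in Control for On T, and both overlapped. Ifnar1 and Ifnar2 were not called in either comparison, at -0.17 and 0.11 after testosterone. Il10rb had a log2 fold change of -0.44 on testosterone and edgeR adjusted p = 0.0637.

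Over all 83 tested pathway genes that are not members, 32 were called higher after testosterone (38.6%), beside 7.49% of all genes, and 4 lower on it (4.82%), beside 5.03%. Of 17 genes of sensing and induction 10 were called higher in Post T, among them Tlr7 (log2 fold change 1.70), an endosomal RNA receptor, Irf8 (1.16), a factor of myeloid cells, Aim2 (1.92), a DNA sensor, and Ikbke (0.88), a kinase upstream of Irf7. Of the 42 other induced genes tested, 18 were called higher, among them Slfn2, which averaged 24.7 ± 2.68 CPM in Post T and 7.71 ± 1.28 CPM in Control for Post T (log2 fold change 1.68, SE 0.17, edgeR adjusted p = 2.39e-06), and Ifi30, a lysosomal thiol reductase, at 0.91. The same list held the 4 genes called lower on testosterone, Ifi204, Ifi211, Isg20 and Gbp10. Ifi204, a DNA-binding protein of myeloid cells, averaged 5.64 ± 0.928 CPM in On T and 23.9 ± 9.23 CPM in Control for On T (log2 fold change -2.08, SE 0.25, edgeR adjusted p = 5.88e-05), and Gbp10 lay under 0.1 CPM in every On T library and at 0.151 to 0.448 CPM in Control for On T. Negative regulators had 1 of 8 called, Irf2 after testosterone (0.36), and the 6 other Oas1 genes had edgeR adjusted p of 0.247 or more in both comparisons. Oas1c, Oas1d and Oas1e, which are known from oocytes, averaged 13.6 ± 1.39, 12.1 ± 1.60 and 16.3 ± 2.35 CPM in Post T, against 11.3 ± 1.53, 10.7 ± 0.701 and 14.4 ± 0.902 CPM in Control for Post T.

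Markers of macrophages, T cells and neutrophils moved with the calls after testosterone. Of 12 macrophage markers, 8 were called higher in Post T and the median marker had a log2 fold change of 1.08. Their summed level was 3303 to 5023 CPM in Post T, against 503 to 1099 CPM in Control for Post T, but lysozyme (Lyz2) alone made up 78.9 to 81.7% of it in Post T and 45.2 to 60.4% in Control for Post T. Without Lyz2 the other 11 markers summed to 696 to 995 CPM in Post T, against 276 to 436 CPM in Control for Post T. On testosterone the macrophage list was mixed, with a median log2 fold change of 0.08, 5 of 12 negative, and Lyz2, Cd68 and Mertk called higher. Its sum without Lyz2 was 203 to 369 CPM in On T, against 225 to 291 CPM in Control for On T, and the groups overlapped. Within Post T that sum was 736, 760, 995 and 696 CPM in libraries 1 to 4, highest in library 3, while library 1 had the highest level of 26 of the 41 members. T cell markers summed to 31.0 to 42.3 CPM in Post T, against 10.5 to 15.7 CPM in Control for Post T (4 of 8 called higher). Cd4 made up most of that sum in Post T, at 631 to 804 counts, against 51 to 240 in Control for Post T. Neutrophil markers summed to 9.12 to 12.8 CPM in Post T, against 2.88 to 5.03 CPM in Control for Post T (3 of 4 tested called higher). Csf3r made up most of the neutrophil sum in Post T, at 213 to 299 counts, against 53 to 131 in Control for Post T. Natural killer cell markers had 0 of 5 called higher, B cell markers 1 of 5 and conventional dendritic cell markers 1 of 7. Among B cell markers 2 log2 fold changes were negative, and among conventional dendritic cell markers 3. Over all tested genes 7.49% were called higher. The part of any of these cells in the members' levels was not tested.

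Luteal markers were lower on testosterone, as were the members called there, but the libraries within On T did not follow this. The sum of 6 corpus luteum markers was 709 to 2570 CPM in On T, against 6410 to 8250 CPM in Control for On T, with 5 of 6 called lower. Within On T that sum was 1031, 1018, 2570 and 709 CPM in libraries 1 to 4, highest in library 3. Relative to the controls, the median member lay at -0.177, -0.335, -0.386 and -0.228 on the log2 scale in the same order. Library 3 was the lowest of its group for 22 members. After testosterone the same sum was 1843 to 3933 CPM in Post T, against 5363 to 10960 CPM in Control for Post T, with 4 of 6 called lower. Cyp11a1 made up most of the counts in each of these sums, and single markers differed widely from it. Akr1c18 had 5 to 11 counts in Post T, against 4141 to 4774 in Control for Post T. Ptgfr had 75 to 195 counts in Post T, against 10470 to 20617 in Control for Post T. Lhcgr overlapped, at 5428 to 27313 counts in Post T and 4893 to 31964 in Control for Post T. The 7 markers of plasmacytoid dendritic cells, which make much type I interferon, include Bst2 itself. Without Bst2 the other 6 summed to 234 to 327 CPM in On T, against 267 to 294 CPM in Control for On T, with overlap and 1 called lower, Pacsin1. Tcf4 made up most of that sum, with 7111 to 11421 counts in On T and 7594 to 12161 in Control for On T. Irf8 followed, at 646 to 1103 counts in On T and 524 to 994 in Control for On T. The sum therefore mainly gives the level of Tcf4. The defining markers Siglech and Ccr9 averaged under 1 CPM. After testosterone the 6 without Bst2 summed to 273 to 366 CPM in Post T, against 239 to 320 CPM in Control for Post T, with overlap. Of all 7 markers, 1 was called higher after testosterone (14.3%), beside 7.49% of all genes, and 3 log2 fold changes were negative. For the difference of effects 3 of the 7 were called higher (42.9%), beside 2.93% of all genes. No marker of any list was at 0 in all libraries. The part of these cells in the members' levels was not tested.

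Promoter elements were set beside the calls as a description. Of the members with a promoter, the ISRE letters were present in 3 of 5 called lower on testosterone, in 5 of 6 called higher after it and in 11 of 20 called in neither. The GAS letters were present in 1 of 5, 4 of 6 and 4 of 20 in the same order. Gbp5, Igtp, Irf1 and Oas1a were the members higher after testosterone with a GAS match, and the printed promoters of Irf1 and Oas1a show theirs. Oasl2, with the smallest p on testosterone, has neither match in its printed window.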

How the data were processed

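RNA-seq libraries came from 16 mouse ovaries, with 1 library per mouse. The labels' protocols name poly(A) selection, a strand-keeping kit and paired reads. Tools listed by the submitters' processing notes, with no role or order, are RSEM 1.3.3, STAR 2.7.8a, FastQC 0.11.8 and cutadapt 2.3, on GRCm38. Neither the annotation release nor whether counting used strand is given in the sources used here. The authors deposited expected counts per gene, which are not normalised and are all whole numbers in the table. The authors also deposited TPM, corrected for gene length and library total, which gave the levels between genes and the limma alternatives. The 16 columns of FPKM were not used.

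Counts entered edgeR 4.0.16 (R 4.3.3). With filterByExpr at a minimum count of 10, 18833 of 55426 genes were tested. All 16 libraries, scaled by TMM, shared 1 fit with a mean for each of the 4 groups, and the common biological coefficient of variation was 0.179. Each contrast had a quasi-likelihood F test, with Benjamini-Hochberg adjustment over every tested gene and a threshold of 0.05. The SE of a log2 fold change is its size over the square root of F. Simulated data made from these libraries were used to test the steps. With totals of 26598055 to 52659637 counts, the floor of 3 counts equals 0.0571 to 0.117 CPM per library, for counting error only.

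The members, their role groups, and the pathway and marker lists were chosen with earlier results of these data known. Library values are printed, per role group, for up to 3 members with the smallest p after testosterone and up to 2 with the smallest p on it, and for members called in the difference of effects. A few others were added after their values were seen, as were Ifi204, Ifi211, Isg20, Gbp10 and Irf2 among pathway genes, which otherwise are up to 4 per list by p plus Ifnar1, Ifnar2, Ifne and Ifng. The result of 1 pathway gene is not reported here. Gene positions are GENCODE's for GRCm38 and promoters RefSeq's for GRCm38.p6. Promoters of Dhx58, Zbp1, Usp18, Oas2, Mx1, Mx2, Iigp1, Ifi27, Rtp4 and Parp14 were not used here.

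Results were recomputed with DESeq2 1.42.0, with limma 3.58.1 on log2(TPM + 1) and log2(TPM + 0.1), with size factors of the median-ratio kind, without a filter, with a filter at 1 CPM in 4 libraries, with only the 8 libraries of a comparison, with a replicate block, with age in the model, and without each library. A fit without both On T library 2 and Post T library 1 was added after seeing the data.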

Additional observations from a re-analysis of the deposited data

Results flagged for a closer look

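Of 164 groups of 4 libraries, 1 per member and group, 8 held a library far from the other 3. Chance alone gives about 1 in 20 such groups, which is about the number found. In 4 of the 8 the library was Post T library 1. It had 19.0 CPM of Irf7, against 10.1 to 11.5 CPM in the other Post T libraries, and 42.3 CPM of Irf9, against 28.8 to 30.1 CPM. It had 9.74 CPM of Isg15, against 4.43 to 5.23 CPM in the others, and 6.34 CPM of Usp18, against 2.89 to 3.15 CPM. None of these 4 members was called in Post T against Control for Post T. The summed macrophage markers other than Lyz2 came to 736 CPM in Post T library 1, within the 696 to 995 CPM of the group. With Lyz2 the sum was 3593 CPM in Post T library 1, within the 3303 to 5023 CPM of the group. The cause of the high values in this library was not tested.

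The other 4 were single members in 4 different libraries. Ifit2 had 14.4 CPM in On T library 2, against 8.56 to 9.52 CPM in the other On T libraries. Gbp5 had 2.69 CPM in On T library 3, against 4.72 to 5.05 CPM. Mx1 had 0.741 CPM in Control for On T library 3, against 0.373 to 0.421 CPM, and Cmpk2 had 19.2 CPM in Control for Post T library 1, against 13.99 to 14.6 CPM.

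The effect of testosterone differed between the cohorts for 2 members by the test of the difference itself. Oas1a differed by 1.79 on the log2 scale (Post T effect minus On T effect, edgeR adjusted p = 0.00085), with a log2 fold change of 1.29 after testosterone and -0.51 on it. Dhx58 differed by 1.12 (edgeR adjusted p = 0.0329), with 0.68 after testosterone and -0.44 on it. Oas1a shares 32.4% of its 150-base windows with Oas1g, which had the same signs without a call.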

How the results depend on the processing

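Over 3227 values of single members under other settings, 3100 kept their side of the threshold, 91 were no longer past it and 36 were newly past it. Of called values 0 changed direction. Values that were not called could change sign, as Irf7 did after testosterone, at -0.17 to 0.179 when 1 library was left out. With limma on log2(TPM + 1) and on log2(TPM + 0.1) the number of called members was 3 and 3 on testosterone (6 in edgeR on counts), 6 and 6 after it (10, of the 6 Bst2 lower) and 1 and 1 for the difference (2), and that of other pathway genes 2 and 2 (4), 20 and 19 (32) and 12 and 11 (20). Of all genes these fits called 6.00 and 6.21% on testosterone, beside 7.32% of members, 9.88 and 9.87% after it, beside 14.6%, and 3.10 and 2.58% for the difference, beside 2.44%. DESeq2 called 6 members for the difference (14.6%, beside 5.30% of all genes) and 1 between the controls (2.44%, beside 0.919%). Leaving out 1 library gave 2 to 3 called members on testosterone, whichever of the 8 libraries was left out (4.88 to 7.32%, beside 5.66 to 9.24% of all genes), 6 to 10 after it (14.6 to 24.4%, beside 9.19 to 12.0%), 1 to 6 for the difference (2.44 to 14.6%, beside 2.37 to 3.85%) and 0 to 1 between the controls (1 without Control for Post T library 1). For the difference 1 member was called without On T library 1 or 3, Control for On T library 1, 3 or 4, Post T library 1 or Control for Post T library 3, and 6 without Post T library 4. Without On T library 2 and Post T library 1 together, chosen after seeing the data, 6 members were called on testosterone, 6 after it and 1 for the difference (14.6, 14.6 and 2.44%, beside 7.16, 11 and 3.21% of all genes). Age as a covariate moved the median member of the control comparison to -0.17. With the replicate number as a block, 7 members were called on testosterone, 10 after it, 3 for the difference and 0 between the controls (17.1, 24.4, 7.32 and 0%, beside 8.90, 12.1, 3.01 and 0% of all genes). Same-numbered libraries correlated at -0.02 to 0.13 on testosterone and 0.04 to 0.23 after it, and 2 of 8 libraries correlated best with their own number. These values neither show nor exclude pairing, and the numbers were not taken as pairs. The cause of these shifts was not tested. Low counts limit Oas3, Mx1 and Oas1g most, and ligands could not be tested at this depth.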
